A study of Homo sapiens with 6 samples.

Results

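The replication-dependent histone genes of human TYK-nu cells, a line the labels describe as ovarian cancer, are described here in cells with ZNFX1 knocked out and in wild-type cells. Members were chosen by symbol: H1-1 to H1-6 and all genes named H2AC, H2BC, H3C or H4C with a number. Of 69 such symbols, 68 had a gene row among the 62260 gene rows, and 58 of these had at least 10 estimated fragments in at least 2 libraries and were kept. H4C15 was not analysed here. The kept genes comprised 4 of 6 H1 genes, 16 of 17 H2A genes, 16 of 18 H2B genes, 11 of 13 H3 genes and 11 of 14 H4 genes. The 10 genes not kept were H1-1, H1-6, H2AC1, H2BC1, H2BC3, H3C3, H3C11, H4C6, H4C7 and H4C13, none with more than 10 fragments in any library. The threshold fell between H1-6, with 10, 6 and 5 fragments in ZNFX1 KO 1 to 3 and 6, 8 and 6 in WT 1 to 3, and H2BC6, with 23, 17 and 15 in the KO libraries and 17, 23 and 18 in the WT libraries.

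Replication-dependent histone genes supply the core histones H2A, H2B, H3 and H4 and the linker histone H1 that package newly made DNA. They lie in clusters, have no introns in their coding part, and are transcribed mainly in S phase, when NPAT and other factors gather at the clusters. Their mRNA ends in a conserved stem-loop in place of a poly(A) tail, is bound there by SLBP, and is degraded when DNA synthesis stops. Replication-independent variants such as H3.3 and H2A.Z are made through the cell cycle from ordinary polyadenylated mRNA.

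The study held 3 libraries of ZNFX1 KO cells and 3 of WT cells, all untreated, all TYK-nu and all of 1 labelled batch, made with a kit for total RNA, which does not select for poly(A) tails. ZNFX1 encodes a zinc finger protein with a helicase domain, linked to the sensing of viral RNA. The labels call the libraries biological replicates, without naming separate cultures or KO clones. The p-values therefore describe library-to-library spread, and loss of ZNFX1 and anything else in which the KO line differs cannot be told apart. ZNFX1 mRNA was at 102, 70.4 and 75.1 CPM in the KO libraries and at 130, 208 and 109 CPM in the WT libraries (log2 fold change -0.85 with an SE of 0.27, adjusted p = 0.218). CPM values are counts scaled to the fragments on gene rows of each library and by its TMM factor (0.958 to 1.04). TPM values are those of the authors, which also allow for length. From 21413002 (WT 2) to 23494771 (WT 3) fragments were assigned per library, at least 19115530 of them to gene rows. Of 8 ovarian and epithelial markers, KRT18, KRT8 and WT1 passed the filter for testing, PAX8, KRT7, MUC16 and MSLN were at 0.104 CPM or less in every library, and EPCAM was at 0 in the KO libraries and at 0.228 to 1.72 CPM in the WT libraries. Of the leukocyte markers, PTPRC, CD3D, MS4A1 and NKG7 were at 0 throughout, and 8 fibroblast markers summed to at most 0.99 CPM in any KO library and 1.82 CPM in any WT library. CD68, a lysosomal protein, had 273, 170 and 215 CPM in the KO libraries, against 318, 477 and 210 CPM in the WT libraries (log2 fold change -0.61, SE 0.31), and was highest in WT 2. LYZ, or lysozyme, had 8.15, 2.92 and 2.97 CPM in the KO libraries, against 0.459, 1.01 and 2.82 CPM in the WT libraries (log2 fold change 1.70, SE 0.66). KRT18 had 185, 121 and 147 CPM in the KO libraries, against 108, 82.7 and 118 CPM in the WT libraries (log2 fold change 0.55, SE 0.22). KRT8 went the other way, with 19.9, 10.7 and 13.5 CPM in the KO libraries. In the WT libraries KRT8 had 24.6, 37.2 and 11.4 CPM (log2 fold change -0.73, SE 0.41), and the groups overlapped. WT1 had a log2 fold change of 0.15 (SE 0.30). LYZ and KRT18 were higher in every KO library than in any WT library in CPM and overlapped in TPM. Without the TMM factor they overlapped in CPM too. None of these was called, and their part in the histone values was not tested.

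The 3′ stem-loop was read from the gene models to show which members carry the signal that sets these mRNAs apart. The 16-base pattern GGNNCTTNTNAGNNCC was searched on the coding strand after the stop codon of the GENCODE 29 models (GRCh38). It was found in 29 of the 30 kept genes whose model holds at least 60 bases after the stop codon, against 0.382% of 19118 coding genes. It began 23 to 67 bases after the stop codon, with a median of 36. No form was read in the other kept genes, among them all H1 genes, H4C4 and H3C12. Nearly all of these had no model with 60 bases after the stop codon to search. The members with the pattern used 6 forms, written 5′ to 3′ as DNA with the 4-base loop in capitals.
H2A, H2B and H3 form, 17 genes, among them H2AC13, H2AC18 and H3C15: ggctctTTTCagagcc
H2B and H3 form of H2BC4, H2BC5, H2BC7 and H3C8: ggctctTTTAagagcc
H3C6: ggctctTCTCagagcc
H2AC11: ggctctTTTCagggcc
H4 form of H4C2, H4C5, H4C8 and H4C16: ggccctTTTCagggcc
H4 form of H4C9 and H4C14: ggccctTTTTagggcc
The H4 forms differ from the common form in both arms of the stem, and the remaining forms differ from it in the loop or, in H2AC11, in a single arm.

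Promoters are shown for the genes on which the results turn: the shared spacer of H2AC13 and H2BC13, both higher in CPM in every KO library than in any WT library, the H4 gene with the highest fold change (H4C4) and the H4 gene with the highest level (H4C14), and H1-5 as an H1 example. RefSeq windows (GRCh38.p14) from 250 bases before the start to 50 after were at hand for 54 kept genes, and each motif was searched on both strands. Capitals mark the motifs found, on either strand. These are the CCAAT box, the TATAAA form of the TATA box, the H1 box with the letters AAACACA, and a stretch of the H4 promoter element with the letters GGTCCG. The sequences are given 5′ to 3′ on the strand stated.
H2AC13 and H2BC13 spacer, chr6:27807930-27808172, plus strand, H2BC13 to the left and H2AC13 to the right: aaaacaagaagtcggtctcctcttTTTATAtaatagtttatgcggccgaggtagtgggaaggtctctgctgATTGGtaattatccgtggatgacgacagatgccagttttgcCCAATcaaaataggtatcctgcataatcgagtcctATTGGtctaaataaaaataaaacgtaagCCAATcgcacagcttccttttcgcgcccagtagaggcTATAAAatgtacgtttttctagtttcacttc
H4C4, chr6:26189113-26189232, minus strand, the last base next to the start: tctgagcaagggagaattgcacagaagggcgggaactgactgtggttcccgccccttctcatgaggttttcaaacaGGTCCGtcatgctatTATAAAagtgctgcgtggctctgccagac
H4C14, chr1:149832537-149832656, plus strand, the last base next to the start: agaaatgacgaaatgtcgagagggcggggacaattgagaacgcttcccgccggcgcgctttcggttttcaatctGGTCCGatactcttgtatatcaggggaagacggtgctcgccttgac
H1-5, chr6:27867589-27867718, minus strand, the last base next to the start: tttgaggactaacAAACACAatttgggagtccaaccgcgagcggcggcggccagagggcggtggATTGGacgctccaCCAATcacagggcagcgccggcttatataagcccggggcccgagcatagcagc
The motifs were unevenly spread over the families. GGTCCG stood in 9 of 9 H4 windows and in 3 of 45 others, against 11.3% of all 35116 windows. AAACACA stood in 4 of 4 H1, 2 of 10 H3 and 1 of 15 H2A windows and in no H2B or H4 window, against 5.64% of all windows. The octamer ATTTGCAT, a site for OCT1, stood in 10 of 15 H2A and 12 of 16 H2B windows, 1 of 10 H3 windows and no H1 or H4 window, against 1.77% of all windows. CCAAT was found in 45 of 45 H1, H2A, H2B and H3 windows and in 1 of 9 H4 windows, against 34.6% of all windows, and TATAAA in 37 of 54, against 11.5%. Windows of H2A and H2B neighbours with starts 193 to 247 bases apart overlap, so a motif between them counts for both genes. A gene was counted if any of its windows held the motif, while the percentages are of single windows.

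The summed level of the 58 genes was 12933, 11118 and 15337 TPM in ZNFX1 KO 1, 2 and 3, against 9830, 4754 and 16540 TPM in WT 1, 2 and 3. In TPM the groups overlapped: WT 3 was the highest library and WT 2 the lowest, at 36.1% of the mean of the other WT libraries. The means were 13129 ± 2116 TPM in the KO and 10375 ± 5912 TPM in WT (SD, n = 3 each), a log2 ratio of 0.34, which became -0.01 without WT 2. As a share of the fragments on gene rows, the genes held 0.731%, 0.512% and 0.812% in the KO libraries and 0.579%, 0.285% and 0.778% in the WT libraries. In summed CPM, KO 3 was the highest library (8245, against 7450 in WT 3). The log2 ratio of the CPM means was 0.39, and 0.07 without WT 2.

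**Figure D1:**
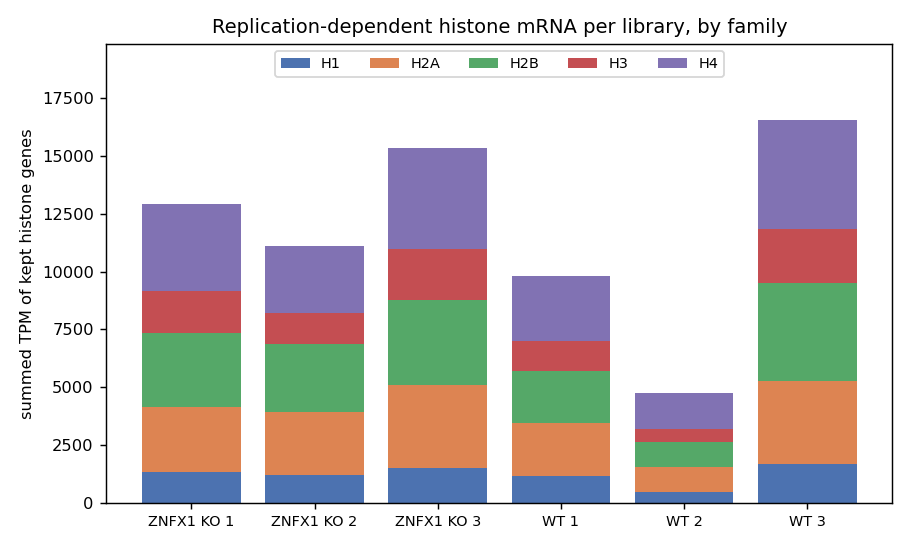
Summed TPM of the 58 kept histone genes in each library, with the height of each colour giving 1 family. The KO bars reach 11118 to 15337 TPM and the WT bars 4754 to 16540 TPM, and the families keep similar proportions in bars of different height.

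The families kept their proportions while the total changed. H4 supplied 27.9 ± 1.69% of the summed TPM in the KO and 30.1 ± 2.59% in WT, H2B supplied 25.1 ± 1.14% and 23.6 ± 1.73%, H2A 23.2 ± 1.35% and 22.7 ± 1.01%, H3 13.5 ± 1.04% and 13 ± 1.24%, and H1 10.4 ± 0.583% and 10.6 ± 0.920%, the KO given first in each pair (SD, n = 3 each). Each difference was smaller than the larger of its SDs. H4 had its highest share, 33.1%, in WT 2, the library with the lowest total.

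Levels within a family were uneven, and in each family the same gene led in TPM in 6 of 6 libraries. These were H4C14, H2AC18, H3C15, H2BC18 and H1-2. In fragments over all libraries, without allowance for length, H2BC21 (29367) exceeded H2BC18 (28712). The 10 highest genes held 43.3% to 46.9% of the summed TPM and the 20 highest held 66.8% to 70.2%, depending on the library. Of the 58 genes, 39 had a mean of at least 100 TPM over the libraries and 4 were under 10 TPM: H2BC14, H3C12, H3C6 and H2BC6. The deposited row lengths bear on these values, since H2BC6 was given 2585 bases, H2BC21 2224 bases and H3C6 between 1037 and 2679 bases depending on the library.

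The genes share much of their coding sequence, so fragments may have been assigned to a wrong copy. Within H2B, 16 coding sequences of equal length were all distinct, with a median identity of 90.3%. Within H4 the median was 84.0%, within H3 85.2%, and within the 13 H2A coding sequences of equal length 85.2%. Coding sequences were identical in H2AC18 and H2AC19, in H3C14 and H3C15, and in H4C11 and H4C12.

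The comparison of ZNFX1 KO with WT asked which of these genes differ between the cell lines. Of the 58 genes, 57 passed edgeR's filter on low counts, and none of the 57 was called in either direction by edgeR's quasi-likelihood test (threshold 0.05 after adjustment over 14166 genes, range 0.116 to 0.985), against 0.727% of all genes called. Unadjusted, 4 genes were under 0.05 (H3C12, H4C4, H2BC13 and H2AC13), against 15.1% of all genes. DESeq2 called 1 (H4C4), against 4.09% of all genes, and limma-voom called 0. With no filter edgeR called 3 (H2AC19, H3C12 and H4C4), against 2.11% of all genes. Of these, H2AC19 held fragments in KO 1 and KO 3 alone and has the coding sequence of H2AC18, so its count depends on the assignment of fragments. Without WT 3 it called 2 (H2BC14 and H4C4), against 9.02%, and without KO 1 it called 1 (H3C12), against 0.751%. Log2 fold changes were positive for 54 and negative for 3 of the 57 (H3C12, H3C14 and H2BC6), with a median of 0.40, while 48.8% of all genes were positive and their median was -0.01. In CPM, every KO library lay above every WT library in 4 genes (H4C4, H2AC13, H2BC13 and H3C6), against 9.39% of all genes, and below in 1 gene, H3C12, against 10.8% of all genes. In TPM, H2BC13 and H3C6 overlapped between the groups.

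WT 2 moved with this difference. It was the lowest of the 6 libraries for 53 of the 57 genes, against 26.8% of all genes. Its level was a median 42.5% of the mean of WT 1 and WT 3, with a range of 19.4% (H2BC17) to 138% (H2BC6), against a median of 99.9% over all genes. Without WT 2 the median log2 fold change of the 57 genes was 0.09, with 39 positive and 18 negative, while 49.8% of all genes were positive.

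The other libraries also stood apart from each other in these genes. ZNFX1 KO 2 was the lowest KO library for 54 of the 57 genes, at a median 69.3% of the mean of KO 1 and KO 3, against 37.2% of all genes and a median of 99%. WT 1 was below WT 3 for 54 genes, at a median 77.9% of it, against 49.4% of all genes. WT 3 exceeded the mean of the KO libraries for 40 of the 57 genes, and its median over all 57 was 105% of that mean, against 49.2% of all genes and a median of 99.6%. In bulk samples, fewer cells in S phase and less histone mRNA per cell cannot be told apart.

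**Figure D2:**
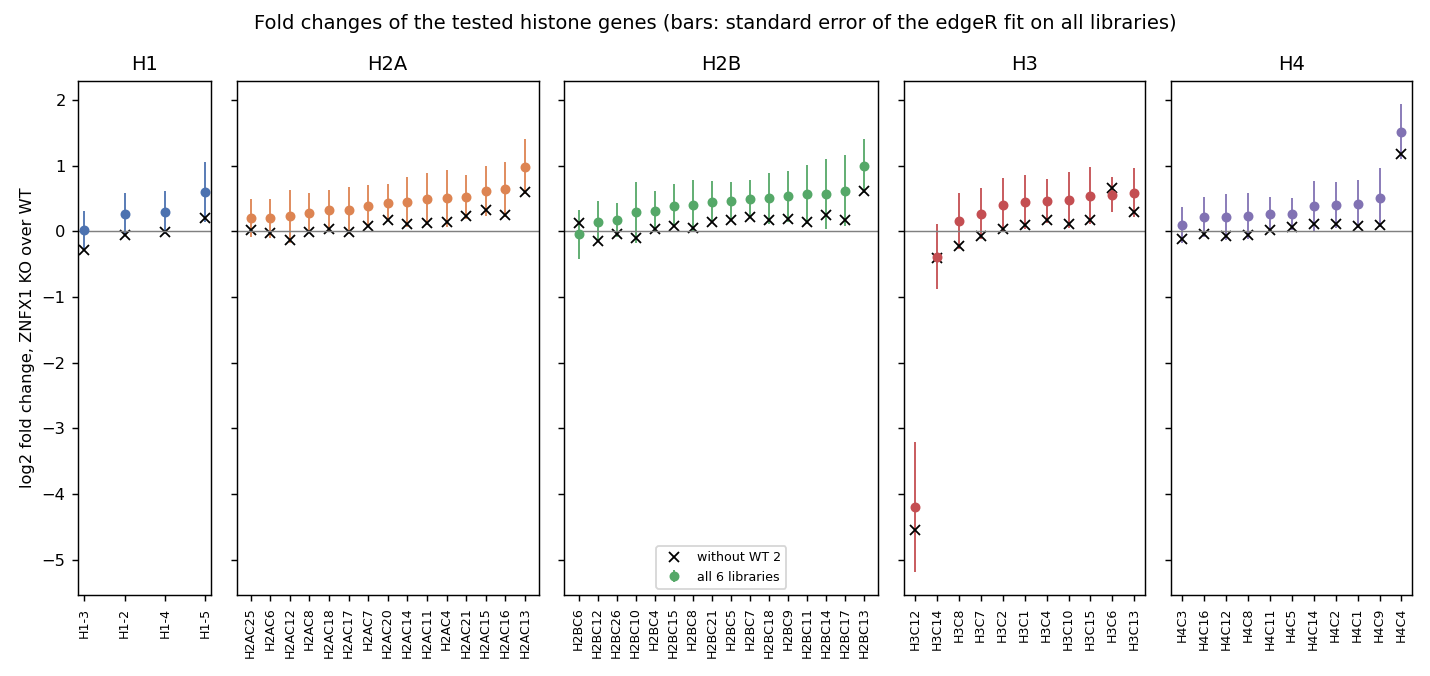
Log2 fold change (ZNFX1 KO over WT) of the 57 tested histone genes by family: filled circles with standard errors come from the fit on all 6 libraries, crosses from the fit without WT 2. Most circles lie between 0 and 1 and most crosses close to 0, and H3C12 at -4.20, H4C4 at 1.52 and the pair H2AC13 and H2BC13 near 1 stand apart.

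Among the linker histones, H1-2 and H1-4 were at the highest levels. H1-2 (chr6:26055787-26056428, minus strand, GRCh38) had 467, 334 and 450 CPM in the KO libraries, against 431, 177 and 439 CPM in the WT libraries. H1-4 (chr6:26156354-26157107, plus strand) had 415, 289 and 407 CPM, against 364, 158 and 385 CPM, in the same order. For both genes WT 2 was the lowest library and KO 2 the next lowest, and the groups overlapped. Their log2 fold changes were 0.26 (SE 0.33) and 0.29 (SE 0.33), and without WT 2 they were -0.06 and -0.02. H1-5 (chr6:27866849-27867529, minus strand), whose promoter is printed above, had 359, 274 and 431 CPM in the KO libraries, against 248, 83.3 and 369 CPM in the WT libraries (log2 fold change 0.60, SE 0.45, adjusted p = 0.541; 0.20 without WT 2). H1-3 had the smallest positive value of the family, 0.02. The family median was 0.27 with WT 2 and -0.04 without it.

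Among the 15 tested H2A genes all log2 fold changes were positive, from 0.20 to 0.99 with a median of 0.44, and 11 were positive without WT 2 (median 0.11). H2AC18, on chromosome 1 and the H2A gene at the highest level, had 419, 398 and 591 CPM in the KO libraries, against 406, 214 and 509 CPM in the WT libraries. H2AC11 (chr6:27133042-27135291, plus strand) had 191, 151 and 221 CPM, against 150, 54.3 and 196 CPM. H2AC20 (chr1:149886975-149887364, plus strand) had 113, 128 and 151 CPM, against 104, 57.7 and 128 CPM. The groups overlapped in all of these, with WT 3 inside the KO range and WT 2 lowest. Their log2 fold changes were 0.32 (SE 0.31), 0.49 (SE 0.40) and 0.44 (SE 0.28), and 0.04, 0.12 and 0.18 without WT 2.

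H2AC19, the copy identical in coding sequence to H2AC18, held 706, 0 and 347 fragments in the KO libraries and 0 in each WT library, and passed the rule through KO 1 and KO 3 alone. It did not pass edgeR's filter. H2AC18 and H2AC19 summed had 454, 398 and 609 CPM in the KO libraries, against 406, 214 and 509 CPM in the WT libraries. The summed value gave a log2 fold change of 0.37 (SE 0.31, adjusted p = 0.581). H2AC19 added at most 34.2 CPM to the sum.

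Among the 16 H2B genes, 15 log2 fold changes were positive, with a median of 0.45 and a highest value of 1.00 in H2BC13, and 13 were positive without WT 2 (median 0.15). H2BC18 (chr1:149782689-149812373, minus strand) was the leading H2B gene in TPM. It had 273, 223 and 335 CPM in the KO libraries, against 172, 94.7 and 318 CPM in the WT libraries. H2BC4 (chr6:26114873-26123926, minus strand) had 176, 124 and 181 CPM, against 143, 74.0 and 171 CPM. H2BC5 (chr6:26158146-26171349, plus strand) had 193, 145 and 199 CPM, against 142, 74.5 and 176 CPM. In these genes too WT 2 was lowest and WT 3 lay within the KO range. Their log2 fold changes were 0.51 (SE 0.39), 0.31 (SE 0.30) and 0.46 (SE 0.30), and 0.18, 0.03 and 0.18 without WT 2. H2BC6, at 0.781 to 1.12 CPM in the KO libraries and 0.820 to 1.16 CPM in the WT libraries, was among the few genes not lowest in WT 2.

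H2A and H2B form a dimer in the nucleosome, and many of their genes face away from a shared spacer. In 10 such pairs, with starts 193 to 247 bases apart in RefSeq, the neighbours had similar fold changes: the median absolute difference in log2 fold change was 0.11 and the largest was 0.30, between H2AC17 at 0.32 and H2BC17 at 0.62. Their levels were less alike. In 6 of the 10 pairs the neighbours were within 2-fold in TPM, and the largest ratio was 5.66, with H2AC14 at 48.4 TPM in the KO and 36.5 TPM in WT and H2BC14 at 8.66 TPM in the KO and 6.34 TPM in WT. TPM depends on row length, which was 494 bases for H2AC20 and 2224 for its neighbour H2BC21. H2AC20 was the higher of the pair in TPM, at 260 in the KO and 194 in WT, against 88.0 and 65.7. H2BC21 was the higher in CPM, at 280 in the KO and 205 in WT, against 131 and 96.5. Both neighbours of a pair share their libraries, so the likeness of their fold changes includes what a library does to all histone genes.

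**Figure D3:**
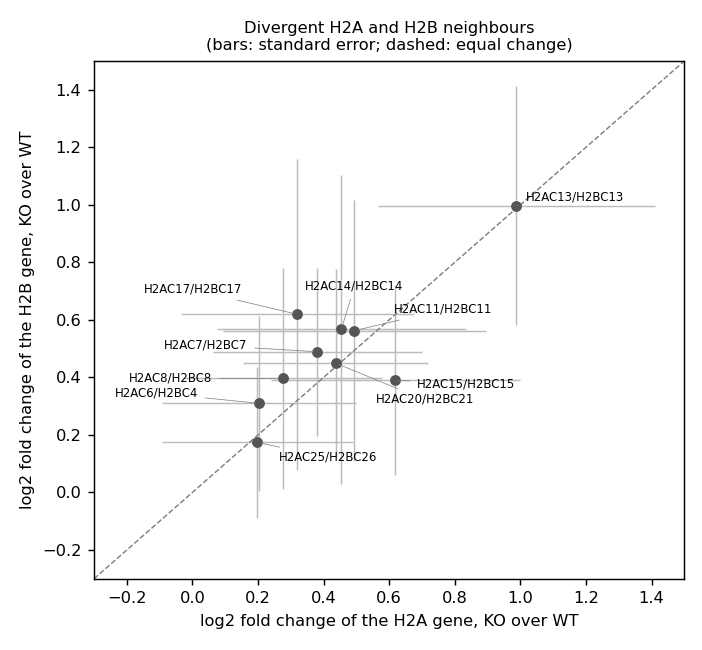
Log2 fold changes (ZNFX1 KO over WT) of the 10 divergent neighbour pairs, the H2A gene on the x axis and the H2B gene on the y axis, with standard errors and a dashed line of equal change. All pairs lie within 0.30 of the line, with H2AC13 and H2BC13 at 0.99 and 1.00.

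H2AC13 and H2BC13, picked with their values known, had the highest fold changes among these pairs. H2AC13 (chr6:27808199-27808701, plus strand) had 128, 96.4 and 145 CPM in the KO libraries, against 74.9, 23.4 and 87.7 CPM in the WT libraries. H2BC13 (chr6:27807444-27807931, minus strand) had 58.4, 41.7 and 69.4 CPM in the KO libraries, against 32.2, 11.4 and 41.3 CPM in the WT libraries. In CPM every KO library exceeded every WT library in both genes, by a small margin between KO 2 and WT 3. For H2BC13 this margin was lost without the TMM factor. In TPM H2BC13 overlapped, at 106 in KO 2 against 110 in WT 3, and H2AC13 did not. The log2 fold changes were 0.99 (SE 0.42, adjusted p = 0.320) and 1.00 (SE 0.42, adjusted p = 0.314). Without WT 2 they were 0.60 and 0.62, above the median of 0.09. Their spacer, printed above, holds CCAAT on both strands and TATAAA toward each gene but not the letters ATTTGCAT. Of the H2A and H2B genes with a window, 22 with the octamer had a median log2 fold change of 0.45 and 8 without it 0.42, and without WT 2 both medians were 0.13.

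Among the 11 H3 genes, 9 log2 fold changes were positive, with a median of 0.45, and 7 without WT 2 (median 0.09). H3C15 (chr1:149852619-149854274, plus strand), the leading H3 gene, had 341, 230 and 461 CPM in the KO libraries, against 251, 97.7 and 361 CPM in the WT libraries. H3C2 had 177, 109 and 178 CPM, against 125, 50.3 and 176 CPM. H3C7 (chr6:26250195-26250605, minus strand) had 153, 95.6 and 165 CPM, against 133, 52.0 and 158 CPM. All 3 overlapped between the groups and had log2 fold changes of 0.54 (SE 0.44), 0.40 (SE 0.41) and 0.27 (SE 0.38), and of 0.17, 0.04 and -0.08 without WT 2. H3C14, identical in coding sequence to H3C15 and picked with its values known, had a negative fold change, at 19.6, 11.6 and 7.08 CPM in the KO libraries, against 6.94, 16.3 and 26.8 CPM in the WT libraries (log2 fold change -0.38, SE 0.50; 0.16 without WT 3), with overlap between the groups. H3C14 and H3C15 summed gave 361, 242 and 468 CPM in the KO libraries, against 258, 114 and 387 CPM in the WT libraries (log2 fold change 0.50, SE 0.41, adjusted p = 0.578).

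H3C12 had the lowest log2 fold change of the histone genes. It held 26, 1 and 1 fragments in ZNFX1 KO 1, 2 and 3, against 119, 76 and 346 in WT 1, 2 and 3, which is 1.26, 0.0503 and 0.0521 CPM, against 6.07, 3.84 and 15.8 CPM. The groups did not overlap, and 2 of the KO libraries held a single fragment. Its log2 fold change stood at -4.20 with an SE of 0.98 (adjusted p = 0.116), and -4.54 without WT 2. Its adjusted p ranged from 4.9e-04 to 0.409 over 20 alternatives, and it was called in 2 of them, without the filter and without KO 1 (log2 fold change -7.22, adjusted p = 0.0276). At a mean of 0.454 ± 0.698 CPM in the KO and 8.55 ± 6.33 CPM in WT (SD, n = 3 each) it was a minor gene of its family, supplying 0.595% of the H3 TPM on average.

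The gene model of H3C12 (chr6:27890382-27893106, minus strand) overlaps that of H2AC17 (chr6:27892757-27893149, minus strand) by 350 bases in GENCODE 29. The deposited rows were 512 bases long for H3C12 and 487 for H2AC17, which are not the lengths of these models, so whether the counted rows shared bases was not tested. H2AC17 had 81.0, 59.8 and 87.7 CPM in the KO libraries, against 67.2, 29.1 and 86.5 CPM in the WT libraries (log2 fold change 0.32). H2BC17, the divergent neighbour of H2AC17, had 101, 80.0 and 118 CPM in the KO libraries, against 60.8, 17.3 and 117 CPM in the WT libraries (log2 fold change 0.62). Neither neighbour had a negative log2 fold change, as H3C12 did.

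H3C6, with TCTC in the loop of its stem-loop, was picked with its values known. It had 4.90, 4.38 and 4.84 CPM in the KO libraries, against 2.65, 3.59 and 3.32 CPM in the WT libraries. In CPM the KO libraries were all higher and WT 2 was not the lowest (log2 fold change 0.56, SE 0.26, adjusted p = 0.354; 0.65 without WT 2). In TPM, where the row length of H3C6 differs by library, it had 2.64, 1.27 and 3.32 in the KO libraries, against 1.77, 0.836 and 1.82 in the WT libraries, so the groups overlapped and WT 2 was the lowest.

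All 11 H4 genes had positive log2 fold changes, from 0.10 (H4C3) to 1.52 (H4C4), with a median of 0.26, and 7 did without WT 2 (median 0.07). H4C14 (chr1:149832659-149839767, plus strand), the most abundant member at a mean of 1062 TPM, had 430, 285 and 554 CPM in the KO libraries, against 274, 187 and 513 CPM in the WT libraries (log2 fold change 0.38, SE 0.38). H4C12 (chr6:27831216-27831527, minus strand) had 279, 142 and 261 CPM, against 249, 108 and 226 CPM (log2 fold change 0.22, SE 0.35; -0.06 without WT 2). H4C11 (chr6:27824108-27824480, plus strand) had 139, 98.8 and 137 CPM, against 119, 66.9 and 127 CPM (log2 fold change 0.26, SE 0.26; 0.02 without WT 2). In these genes KO 2 lay below WT 1 or WT 3 and the groups overlapped. H4C11 and H4C12 are identical in coding sequence, so their split is uncertain.

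H4C4 (chr6:26188765-26189076, minus strand) had the highest log2 fold change of the histone genes. It was at 45.3, 23.4 and 41.5 CPM in the KO libraries, against 14, 5.81 and 18.6 CPM in the WT libraries. Every KO library exceeded every WT library, the nearest being KO 2 and WT 3. The means were 36.8 ± 11.7 CPM in the KO and 12.8 ± 6.47 CPM in WT (SD, n = 3 each). The log2 fold change of H4C4 stood at 1.52 with an SE of 0.41 (adjusted p = 0.160), and at 1.18 without WT 2. It was called in 3 of 20 alternatives (no filter, the DESeq2 Wald test, and without WT 3), with adjusted p from 0.0061 to 0.475 over all of them. Its promoter holds both GGTCCG and TATAAA, while that of H4C14 holds GGTCCG and not the letters TATAAA in the printed stretch. Across members, 36 tested genes with TATAAA in the window had a median log2 fold change of 0.44 and 17 without it 0.38.

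**Figure D4:**
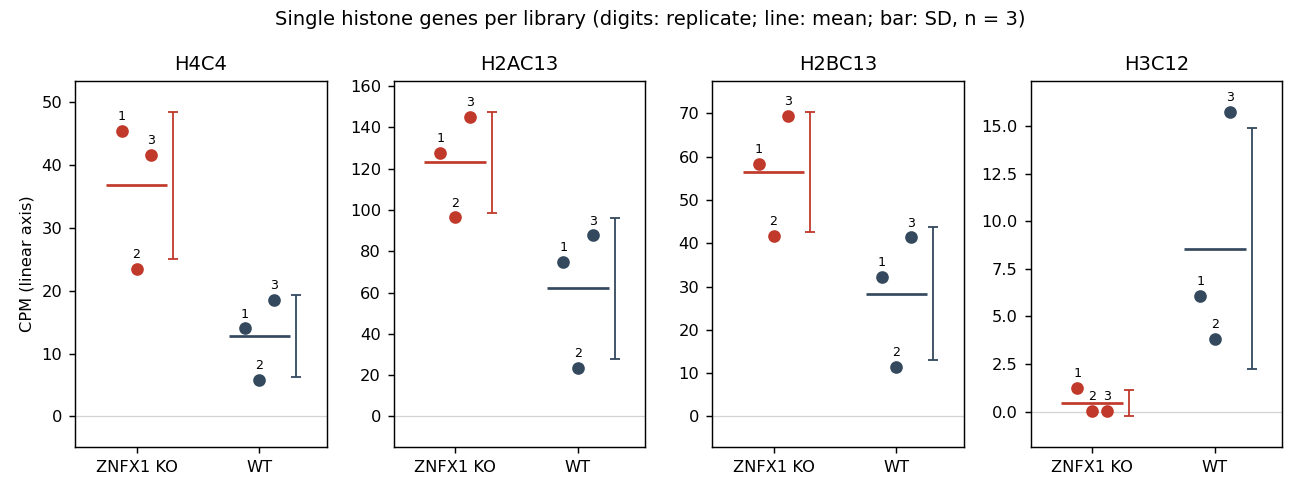
CPM of H4C4, H2AC13, H2BC13 and H3C12 in each library, ZNFX1 KO at the left and WT at the right of each panel, each panel on its own linear axis. For the first 3 genes every KO point lies above every WT point, and for H3C12 every KO point lies below.

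Fold changes are given by form of the stem-loop, with no test between forms. The 16 tested genes with the common form had a median log2 fold change of 0.39, the 4 with TTTA in the loop 0.38, and the H4 genes with the 2 H4 forms 0.25 (4 genes) and 0.45 (2 genes). Without WT 2 these medians were 0.10, 0.10, 0.01 and 0.10. The forms read in a single gene were at 0.56 in H3C6 (0.65 without WT 2) and 0.49 in H2AC11 (0.12 without WT 2).

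By position, the histone genes of chromosome 6 fell into 3 blocks. The first (chr6:26020490-26285638) held 26 kept genes with a median log2 fold change of 0.35, the second (chr6:27125897-27147515) held 5 with 0.49, and the third (chr6:27807444-27893843) held 14 with 0.52. On chromosome 1, the block at chr1:149782689-149887916 held 10 kept genes, of which 9 were tested with a median of 0.45, and the block at chr1:228456979-228460470 held H2AC25 and H2BC26, with a median of 0.19. H4C16, alone on chromosome 12, was at 0.22. Without WT 2 the medians were 0.06, 0.10 and 0.14 for the blocks of chromosome 6, and 0.17 and -0.00 for those of chromosome 1. WT 2 itself was at a median 31.4% and 35.9% of the other WT libraries in the second block and the third of chromosome 6, 43.6% in the first, and 62.4% in H2AC25 and H2BC26. In the third block of chromosome 6, 13 of 14 genes had positive log2 fold changes, the exception being H3C12.

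Genes outside the clusters were taken from fixed lists to show what stood beside these values. Of 12 histone variant genes outside the rule, 10 were tested and 0 were called. Among these, 7 had positive log2 fold changes and the median was 0.46 (0.26 without WT 2). H2AZ1, which encodes an H2A.Z variant, had 304, 307 and 317 CPM in the KO libraries, against 198, 103 and 330 CPM in the WT libraries (log2 fold change 0.56, SE 0.36). H3-3B, a gene for H3.3, had 153, 140 and 152 CPM in the KO libraries, against 119, 131 and 123 CPM in the WT libraries (log2 fold change 0.25, SE 0.15), without overlap in CPM. In TPM H3-3B had 81.5, 67.2 and 89.4 in the KO libraries, against 59.9, 78.7 and 76.8 in the WT libraries, and the groups overlapped. They also overlapped in CPM without the TMM factor. H2AZ2 and CENPA too had every KO library above every WT library in CPM, against 9.39% of all genes, and both overlapped in TPM. H3-3A, the other gene for H3.3, had 165, 219 and 143 CPM, against 87.7, 43.2 and 146 CPM (log2 fold change 0.93, SE 0.39). H2AX, the variant phosphorylated at DNA breaks, had 23.7, 30.0 and 45.1 CPM, against 16.6, 11.1 and 34.0 CPM (log2 fold change 0.68, SE 0.40).

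Of 30 factors that transcribe, process or degrade histone mRNA, 30 were tested, 0 were called, 18 had positive log2 fold changes and the median was 0.19 (0.10 without WT 2). SLBP, which binds the stem-loop, had 56.8, 56.3 and 50.8 CPM in the KO libraries, against 38.8, 27.3 and 56.2 CPM in the WT libraries (log2 fold change 0.42, SE 0.25). NPAT, the coactivator of the clusters, had 35.2, 61.1 and 49.5 CPM, against 29, 18.8 and 40.0 CPM (log2 fold change 0.73, SE 0.30). In both genes WT 2 was lowest and the groups overlapped. CPSF3, the nuclease that cuts histone pre-mRNA, NCBP2, a subunit of the cap-binding complex, and LSM1, a decay factor, had log2 fold changes of 0.43 (SE 0.20), 0.30 (SE 0.16) and 0.08 (SE 0.15). TUT4, a terminal uridylyltransferase picked with its values known, had the lowest value of the list, at 31.3, 26.4 and 28.8 CPM in the KO libraries, against 58.3, 64.3 and 43.8 CPM in the WT libraries (log2 fold change -0.94, SE 0.19, adjusted p = 0.075; -0.82 without WT 2). TUT4 was higher in every WT library, WT 3 included, than in any KO library, against 10.8% of all genes. In CPM every KO library exceeded every WT library in GON4L, CDK2, CPSF2, CPSF3, SYMPK and NCBP2, against 9.39% of all genes. In TPM the groups overlapped in all of these but SYMPK.

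The 22 histone chaperones and assembly factors had 0 called, 20 positive and a median of 0.28 (0.15 without WT 2), with NPM1 at 0.33 (SE 0.21), NAP1L1 at 0.30 (SE 0.17) and SSRP1, a subunit of the FACT complex, at 0.15 (SE 0.17). The 40 S phase genes had 0 called, 40 positive and a median of 0.60 (0.25 without WT 2), with MCM7 of the replicative helicase at 0.69 (SE 0.44) and the sliding clamp PCNA at 1.12 (SE 0.56). SLBP is counted both in this list and among the mRNA factors. The 20 mitosis genes had 0 called, 20 positive and a median of 0.54 (0.27 without WT 2). UBE2C was at 0.60 (SE 0.30), TPX2 at 0.49 (SE 0.29) and CDC20 at 0.69 (SE 0.25). Without WT 2, 17 of the 22 chaperones, 32 of the 40 S phase genes and 19 of the 20 mitosis genes were positive. In CPM every KO library exceeded every WT library in the chaperones RBBP4, NASP, NAP1L1 and SUPT16H and the S phase genes PRIM2, TYMS and TK1. The same held for the mitosis genes CCNB1, CDK1, CDC20, AURKA and BUB1B, against 9.39% of all genes. In TPM the groups overlapped in all of these but TYMS, TK1 and CDC20. Of 11 cell cycle inhibitors 9 were tested, with 0 called and a median of -0.02 (-0.10 without WT 2): CDKN1A, which encodes p21, had 57.7, 69.1 and 77.1 CPM in the KO libraries, against 112, 141 and 63.9 CPM in the WT libraries (log2 fold change -0.64, SE 0.28), CDKN1B was at 0.20 (SE 0.20) and CDKN3 at 0.00 (SE 0.18). Unadjusted p was under 0.05 for 1 of the variants, 4 of the mRNA factors, 2 of the chaperones, 3 of the S phase genes, 1 of the mitosis genes and 2 of the inhibitors, against 15.1% of all genes. Among these lists DESeq2 called TUT4 and TYMS, the thymidylate synthase gene. Without WT 3, edgeR called 21 S phase genes, 8 chaperones, 7 mRNA factors, 3 variants, 3 mitosis genes and 2 inhibitors, against 9.02% of all genes.

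Set library by library, the histone genes followed the S phase genes in part. Relative to the mean of the 6 libraries, the median log2 level of the histone genes was 0.38, -0.13 and 0.49 in ZNFX1 KO 1, 2 and 3, against -0.00, -1.05 and 0.37 in WT 1, 2 and 3. The S phase genes were at 0.47, 0.34 and 0.46 in the KO libraries, against -0.41, -1.40 and 0.53 in the WT libraries. The mitosis genes were at 0.35, 0.30 and 0.36, against -0.14, -1.03 and 0.29. Both kinds of gene were lowest in WT 2, but in KO 2 the histone genes were below the mean while the S phase and mitosis genes were above it, and in WT 1 the histone genes were at the mean while the S phase genes were below it. CDKN1A was highest in WT 2 and next in WT 1. The part of cell cycle state in the difference between the groups was not tested.

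**Figure D5:**
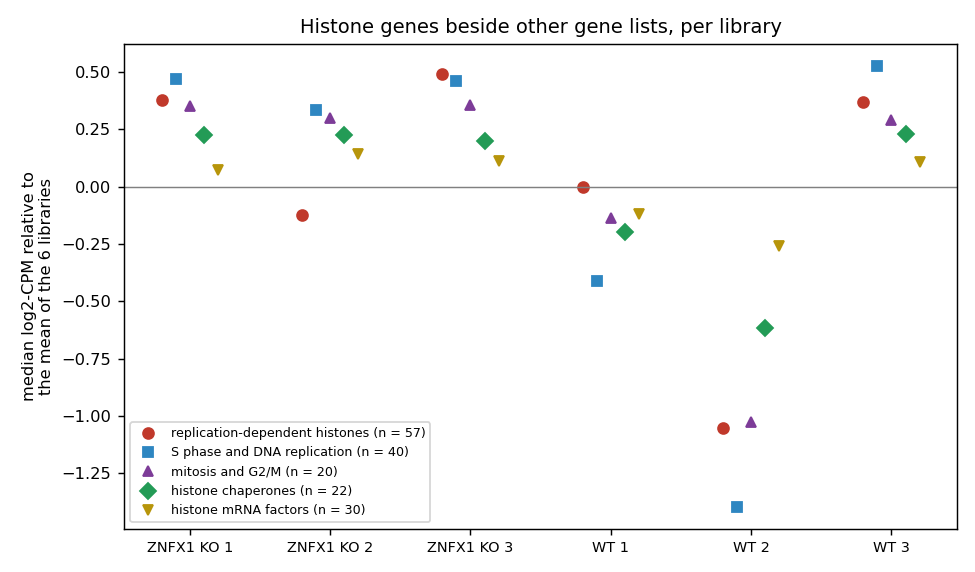
Median log2-CPM of 5 gene lists by library, each gene set against its own mean over all 6, ZNFX1 KO at the left. All lists are lowest in WT 2, and the histone genes (circles) lie below the S phase genes (squares) in KO 2 and above them in WT 1.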

How the data were processed

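RNA of 6 TYK-nu libraries (3 ZNFX1 KO, 3 WT) was measured by paired-end sequencing of stranded total RNA libraries, per the labels' protocols. The submitters' processing notes name Salmon, Trimmomatic, FastQC and DESeq2. Versions, genome build and use of strand were not given in the sources used here. The deposited files hold expected counts (estimated fragments per gene from Salmon), TPM and effective lengths made by the authors, per the labels. Of 197169 rows per file, 62260 are genes; 134909 transcript rows not joined to a gene were left out. Columns of per-sample values not used: 0.

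Expected counts were rounded to whole numbers, filtered with filterByExpr (14166 genes, at least 99.8% of gene fragments), scaled by TMM (factors 0.958 to 1.04) and tested with edgeR 4.0.16 in R 4.3.3 (glmQLFit and glmQLFTest, two-sided, genotype as the only term), with Benjamini-Hochberg adjustment over all genes tested and a threshold of 0.05. Each SE is |log2 fold change| over √F of the test. The log2-CPM values used a prior count of 2. edgeR's shared estimate of biological variation was a coefficient of 0.262. The test was also run on simulated counts, drawn for each gene separately. These hold no shift shared by many genes of a library, such as that of WT 2, so the run did not address it. Counts differed beyond sampling noise in every pair of replicates (chi-square over its degrees of freedom was 30.3 or more), so none was treated as a duplicate.

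Members and lists were chosen with earlier results of these data known. Named genes were the 3 members of each family with the highest mean TPM, the tested members with the highest and the lowest log2 fold change, ZNFX1, the 3 genes of each list with the highest mean TPM, and SLBP, NPAT, H2AX, H2AZ1, H3-3A and H3-3B; a few named by this rule are not reported here, and others are said to be picked with their values known or appear as counts, neighbours or extremes. Symbols came from a gene table, coordinates and stem-loops from GENCODE 29 (GRCh38, 64 of 68 histone rows matched by ID), promoters from RefSeq (GRCh38.p14). Alternatives were other scalings (DESeq2 1.42.0 size factors, library totals), filters and tests (DESeq2, limma 3.58.1), a length offset, TPM values, joined transcript rows, a replicate block, leaving out each library and, added after the data were seen, summed copies.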

Additional observations from a re-analysis of the deposited data

How the results depend on the processing

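The median log2 fold change of the tested histone genes was 0.40 and stayed positive in 20 of 20 alternatives, from 0.34 (library totals alone) to 0.55 (limma on log2(TPM + 0.1)) without leaving out a library, and, over the histone genes tested in each fit, from 0.10 (without WT 2) to 0.73 (without WT 3) when 1 was left out. The number of histone genes called was 0 in the main test and 0 in most alternatives, but 3 with no filter (H2AC19, H3C12 and H4C4), 1 with the DESeq2 Wald test (H4C4), and 0 to 2 when a library was left out, with 1 without KO 1 (H3C12) and 2 without WT 3 (H2BC14 and H4C4). Those settings called 2.11%, 4.09%, 0.751% and 9.02% of all genes. H2AC19 held fragments in KO 1 and KO 3 alone, and its split from H2AC18 is uncertain.

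With no filter and with the DESeq2 Wald test, 1 histone mRNA factor (TUT4) and 1 S phase gene (TYMS) were called. Leaving out a library called 0 to 7 histone mRNA factors, 0 to 21 S phase genes, 0 to 3 variants, 0 to 8 chaperones, 0 to 3 mitosis genes and 0 to 2 inhibitors, the highest count in each case being that without WT 3. The cause was not tested.

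Of 44 named genes, 38 kept their direction in all alternatives. CDKN3 turned to -0.0565 with library totals alone, -0.00157 with the filter of 1 CPM in 3 libraries, -0.0573 with the effective length offset, -0.0188 with limma on log2(TPM + 1) or log2(TPM + 0.1), and ranged from -0.106 to 0.135 when a library was left out. Leaving out a library gave -0.0586 to 0.472 for H1-2, -0.0154 to 0.52 for H1-4, -0.0764 to 0.592 for H3C7 and -0.0634 to 0.484 for H4C12, each lowest and negative without WT 2. H3C14 was at 0.496 when summed with H3C15, and at -0.834 (without KO 1) to 0.162 (without WT 3) when a library was left out.

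With the replicate number as a block, 0 histone genes were called and their median was 0.52. The deviations of same-numbered libraries correlated at 0.13, -0.04 and 0.01, so the numbers were not taken to pair the libraries.

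Transcript rows of histone genes held 2.09% of the histone fragments in WT 2 and 0.280% to 0.480% in the others. They were 27.6% of H2AC6 in WT 2 and 11.1% of H4C14 there. With 1 to 346 fragments per library, the level of H3C12 was measured less precisely than that of the abundant members.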
